A study of Gallus gallus with 6 samples.

Results

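The amino acid transporters described here are 5 genes of the solute carrier (SLC) families, SLC7A9, SLC7A11, SLC7A7, SLC1A4 and SLC6A17, taken by their Ensembl identifiers from a table of 19152 genes. Their mRNA was sequenced in the magnum, the segment of the hen's oviduct that secretes the egg white, with 1 library per hen. The laying group held 3 Hy-Line white hens of 35 weeks, sampled while an egg was passing through the magnum, and the non-laying group held 3 Hy-Line white hens of 35 to 60 weeks, picked from several flocks, whose oviduct was found atrophied at necropsy. The comparison asked which genes differ in the magnum that is forming egg white. The study singled out these transporters because they were higher in the laying hens of these same 6 libraries, so their difference between the groups is a description of a known choice and not independent evidence. Age, flock and laying state differed together between the groups and cannot be told apart. In whole magnum tissue, fewer cells of a type and less RNA per cell cannot be told apart either.

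The solids of egg white are mostly protein, and the tubular gland cells of the magnum must take up amino acids from the blood to make it. Amino acids cross cell membranes through carrier proteins of several SLC families. In mammals, most members of the SLC7 family are light chains that work only when joined to a heavy chain (SLC3A1 or SLC3A2), and they exchange an amino acid on one side of the membrane for another on the opposite side. Carriers of the SLC1 and SLC6 families are single proteins, many of which are driven by the sodium gradient.

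The identities of the 5 genes were not equally firm. SLC7A11 (ENSGALG00000009758, chromosome 4, 29140501 to 29195218), SLC1A4 (ENSGALG00000008811, chromosome 3, 9933075 to 9956187) and SLC6A17 (ENSGALG00000000394, chromosome 26, 1342526 to 1349149) carry their symbols in the deposited annotation of Galgal 5.0. SLC7A7 (ENSGALG00000034806, chromosome 2, 124848271 to 124860833) and SLC7A9 (ENSGALG00000016483, chromosome 3, 102109981 to 102119802) are listed there without a symbol and take their names from the study. RefSeq places the genes it calls SLC7A11, SLC1A4, SLC6A17 and SLC7A7 on the same chromosomes in its assembly GRCg7b. Its SLC7A9 lies on another chromosome than the gene called SLC7A9 here, so that name is uncertain, and SLC7A9 below stands for ENSGALG00000016483. All 5 are annotated as protein-coding, and their counts were whole numbers in all 6 libraries, whereas between 5.84% and 8.69% of all genes in a library had fractional counts (more than 1e-06 from a whole number).

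Summed counts lay between 24948527 and 25763750 in the laying hens and between 18840068 and 24917234 in the non-laying hens. The libraries differed strongly in what filled them. The most abundant gene, ENSGALG00000012869, which has no symbol in the tables used here, held 51.5%, 49.4% and 53.6% of a library's total in laying hens 1, 2 and 3, against 19.8%, 36.5% and 1.33% in non-laying hens 1, 2 and 3. Library sizes were adjusted with edgeR's TMM method, which sets the bulk of genes near no change, and its factors were 0.445, 0.622 and 0.600 in the laying hens and 1.72, 1.19 and 2.94 in the non-laying hens. Levels below are counts per 1000000 (CPM) on the TMM-scaled library sizes unless RPKM is named. RPKM are the deposited values per kilobase of exon and per 1000000 counts, without such a scaling. Of 67 cell type markers listed for this tissue, only 6 could be paired with an identifier, all of them genes that the study had called changed. Of the tubular gland markers 1 of 14 was paired, avidin (AVD), at 838 to 2000 CPM in laying hens and 2.26 to 3.03 CPM in non-laying hens. Of the stromal fibroblast markers 3 of 8 were paired (COL3A1, LUM and FBLN1), with a summed level of 261 to 288 CPM in laying hens and 1082 to 2075 CPM in non-laying hens. The ciliated cell marker CCDC39 (1 of 9) had 2.96 to 9.69 CPM in laying hens and 18.1 to 33.0 CPM in non-laying hens, and the leukocyte marker PTPRC (1 of 11) had 3.68 to 5.75 CPM against 12.1 to 34.1 CPM. None of the 9 smooth muscle, 8 endothelial and 8 red blood cell markers was paired, and none of the paired markers was at 0. The 6 paired markers moved with the groups, as their choice from changed genes required, and markers that did not change could not enter. What part gland and other cells had in the levels of the transporters was not tested.

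Of the 5 transporters, 4 had enough counts to be tested, and all 4 were higher in laying hens past a fold change of 3 and an adjusted p under 0.05 (edgeR's quasi-likelihood test, Benjamini-Hochberg adjustment over all genes tested). Among all 12499 genes tested, 4.98% passed these thresholds, 1.28% as higher and 3.7% as lower in laying hens. The median log2 fold change of the 4 transporters was 3.38, and that of all tested genes was 0.0035. The transporter not tested, SLC6A17, had too few counts. Since the list was chosen on these libraries, the count is given beside the background only as a description.

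**Figure D1:**
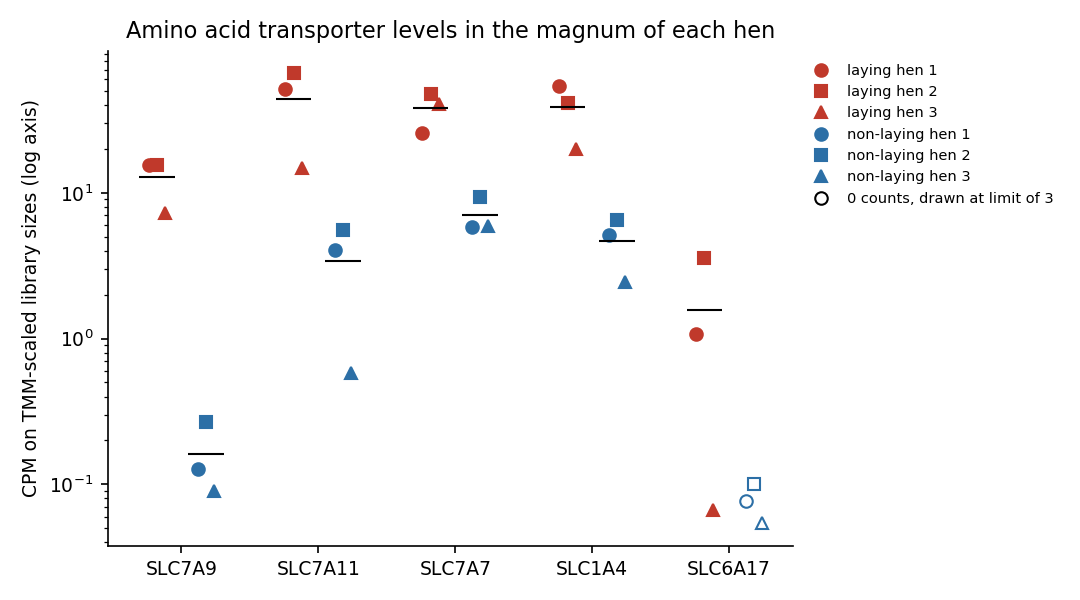
Level of each transporter in each hen, as CPM on TMM-scaled library sizes on a log axis. Each point is 1 hen, horizontal lines are means of 3 hens, and open symbols are libraries with 0 counts drawn at the limit that 3 counts set (0.0542 to 0.101 CPM). In SLC7A9, SLC7A11, SLC7A7 and SLC1A4 the laying hens lie above all non-laying hens, as for 15.1% of all tested genes. The SLC6A17 value of laying hen 3, 0.0668 CPM, lies among those limits.

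Among the 4 tested transporters, SLC7A9 had the largest fold change. In mammals SLC7A9 is the light chain of the carrier that takes up cystine and the dibasic amino acids lysine, arginine and ornithine in kidney and intestine, in exchange for neutral amino acids. It had 174, 250 and 109 counts in laying hens 1, 2 and 3, against 5, 8 and 5 counts in non-laying hens 1, 2 and 3. These were 15.6, 15.6 and 7.28 CPM in the laying hens and 0.128, 0.269 and 0.0903 CPM in the non-laying hens, so the groups were far apart and laying hen 3 was the lowest of its group. The log2 fold change was 6.35 (standard error 0.54, edgeR adjusted p = 0.0033), or 81.8-fold, and only 5 of the 12499 tested genes ranked above it. The size of the fold rests on few reads, since the 95% Poisson intervals of the non-laying levels ran from 0.0415 to 0.298 CPM in hen 1, from 0.116 to 0.531 CPM in hen 2 and from 0.0293 to 0.211 CPM in hen 3. These intervals cover counting error only, and those of all 3 non-laying hens overlapped.

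SLC7A11 had the next largest fold change of the 4 tested, and the most variable levels. In mammals SLC7A11 is the light chain of the cystine and glutamate exchanger, which brings in cystine as a source of cysteine for protein and glutathione. It had 574, 1059 and 223 counts in laying hens 1, 2 and 3, against 158, 165 and 32 counts in non-laying hens 1, 2 and 3. The levels were 51.5, 66.1 and 14.9 CPM in laying hens and 4.04, 5.56 and 0.578 CPM in non-laying hens. Hen 3 was the lowest in each group. The groups did not overlap, with the laying hens on top, as for 15.1% of all tested genes. Within the laying hens the highest level was 4.44 times the lowest, and within the non-laying hens 9.62 times. The log2 fold change was 3.72 (standard error 0.82, edgeR adjusted p = 0.0328). The call did not hold without laying hen 1, laying hen 2 or non-laying hen 1, where the edgeR adjusted p was 0.12, 0.112 and 0.0885 at log2 fold changes of 3.60, 3.30 and 3.88.

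SLC1A4 was the third of the 4 tested by fold change. In mammals it encodes a sodium-dependent exchanger of small neutral amino acids, among them alanine, serine, cysteine and threonine. It had 607, 664 and 301 counts in laying hens 1, 2 and 3, against 201, 192 and 136 counts in non-laying hens 1, 2 and 3. The levels were 54.4, 41.5 and 20.1 CPM in laying hens and 5.14, 6.47 and 2.46 CPM in non-laying hens. The lowest laying hen, again hen 3, was above all non-laying hens, a separation that 15.1% of all tested genes had. The log2 fold change was 3.05 (standard error 0.47, edgeR adjusted p = 0.0130). Without laying hen 1 or laying hen 2 the edgeR adjusted p was 0.0726 and 0.0665, at log2 fold changes of 2.73 and 2.999.

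SLC7A7 rose the least of the 4 and had the most even levels in TMM-scaled CPM. In RPKM, SLC7A9 and SLC1A4 were more even, with a smaller SD relative to the mean in both groups. In mammals SLC7A7 is the light chain of a carrier that, in the basolateral membrane of epithelia, passes lysine and arginine out of the cell in exchange for neutral amino acids and sodium. It had 288, 767 and 611 counts in laying hens 1, 2 and 3, against 227, 276 and 330 counts in non-laying hens 1, 2 and 3. The levels were 25.8, 47.9 and 40.8 CPM in laying hens and 5.80, 9.29 and 5.96 CPM in non-laying hens. Here laying hen 1, not hen 3, was the lowest of its group, and the highest hen was 1.86 times the lowest among laying hens and 1.60 times among non-laying hens. The log2 fold change was 2.45 (standard error 0.32, edgeR adjusted p = 0.0091). Without laying hen 2 the edgeR adjusted p was 0.0548, at a log2 fold change of 2.26.

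SLC6A17 was close to the limit of detection. In mammals it is a neutral amino acid carrier known from the synaptic vesicles of neurons. It had 12, 57 and 1 counts in laying hens 1, 2 and 3, against 0 counts in all 3 non-laying hens. Laying hen 2 thus held most of its counts, and laying hen 3, with 0.0668 CPM, lay within the range of the 0.0767, 0.101 and 0.0542 CPM that 3 counts would be in non-laying hens 1, 2 and 3. With these limits in place of 0, the mean of 1.57 CPM in the laying group was 20.3-fold the non-laying mean. This is a lower bound in regard to the counts of 0 only, and it leaves out the spread of the laying hens (SD 1.80 CPM). On total counts without scaling this bound was 6.63-fold, and with TMM but without laying hen 2 it was 7.39-fold. It passed both thresholds when all genes with at least 1 count were tested (edgeR adjusted p = 0.0215), a fit in which 4.22% of the 16407 genes did, 1.17% as higher and 3.05% as lower in laying hens. It also passed with DESeq2 (adjusted p = 0.0059), where 6.14% of the genes did, 1.79% as higher and 4.35% as lower. With non-laying hen 1, 2 or 3 left out, SLC6A17 passed the filter but not the threshold, at edgeR adjusted p of 0.0926, 0.0582 and 0.0695. The fitted fold changes of a gene without counts in a group, which in edgeR depend on the prior count, are neither a size nor a bound.

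**Figure D2:**
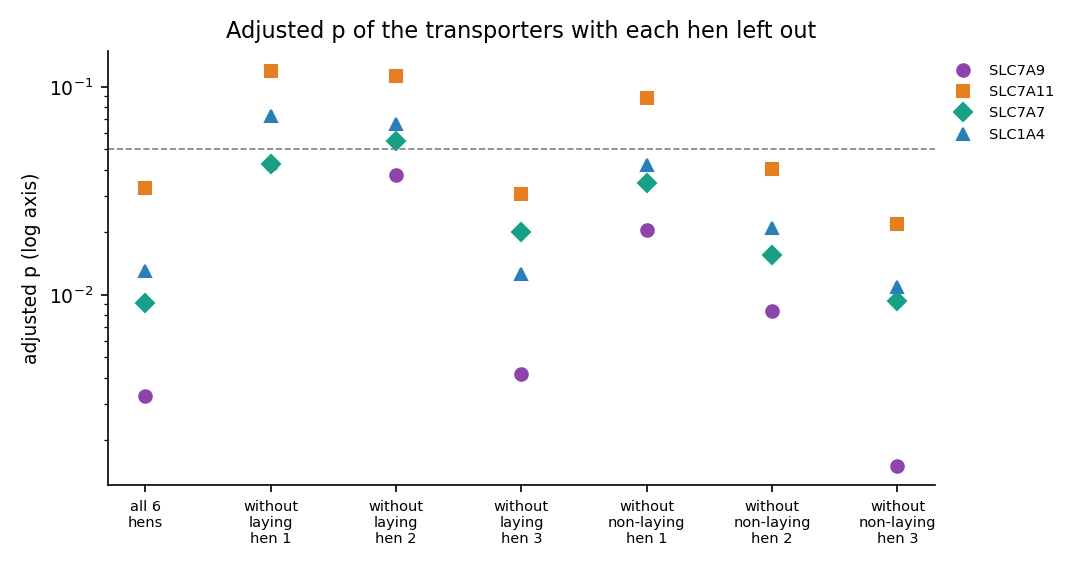
Adjusted p of the 4 tested transporters (edgeR, log axis) with all 6 hens and with each hen left out in turn; the dashed line is the threshold of 0.05. SLC7A9 stays under the line in every fit, with 0.0426 as its highest value (without laying hen 1, where the SLC7A7 symbol has the same value and covers it), whereas SLC7A11 passes over it without laying hen 1 (0.12), laying hen 2 (0.112) or non-laying hen 1 (0.0885).

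Leaving out a hen weighed on all genes and not only on the transporters. Without laying hen 1, 20 of 13053 tested genes passed both thresholds, SLC7A9 and SLC7A7 among them. Without laying hen 2, 16 of 13022 genes passed, and SLC7A9 was the only transporter of the 5 among them. Without non-laying hen 1, 285 genes passed, including SLC7A9, SLC7A7 and SLC1A4. All 4 tested transporters stayed higher in laying hens in each of these fits and in the other alternatives tried.

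The size of each fold change moved with how the libraries were scaled. With DESeq2's size factors in edgeR, the log2 fold changes were 6.37, 3.74, 2.46 and 3.07 for SLC7A9, SLC7A11, SLC7A7 and SLC1A4, close to those with TMM. On total counts without scaling they were 4.67, 2.25, 0.77 and 1.38, and the median of all tested genes was then -1.80. Relative to that median the 4 transporters stood at 6.47, 4.05, 2.57 and 3.18, against 6.35, 3.72, 2.44 and 3.05 relative to the median under TMM. On total counts SLC7A9 (edgeR adjusted p = 0.00011) and SLC7A11 (edgeR adjusted p = 0.0029) still passed both thresholds. SLC1A4 passed the threshold on p (edgeR adjusted p = 0.0217) but not that on the fold change, and SLC7A7 passed neither (edgeR adjusted p = 0.165). Without scaling, 63.2% of all tested genes passed both thresholds, 0.376% higher and 62.8% lower in laying hens. The call for SLC7A7 and for SLC1A4 thus rests on the scaling, whereas that for SLC7A9 and SLC7A11 does not turn on it.

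**Figure D3:**
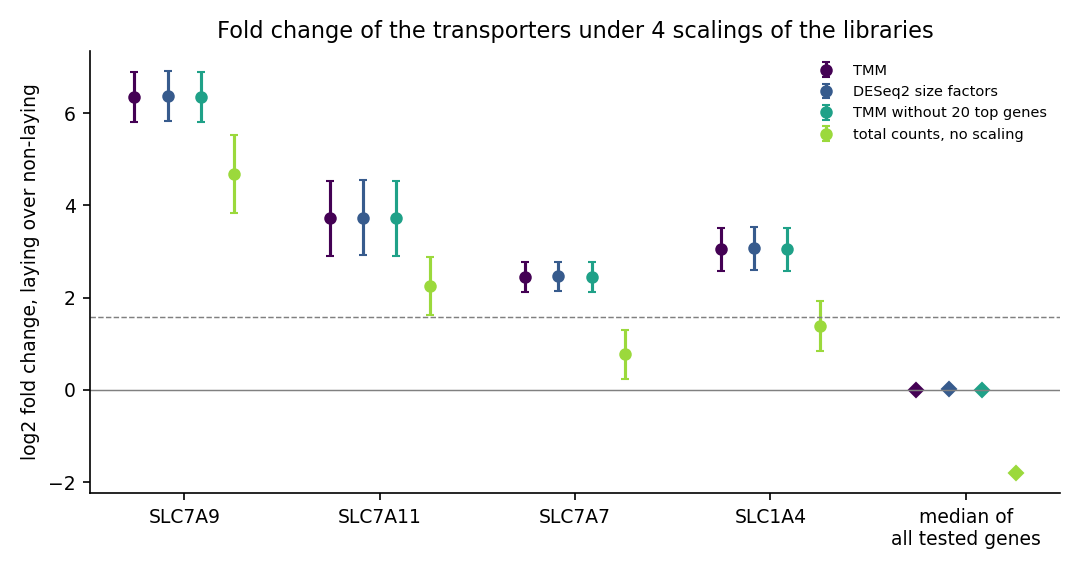
Log2 fold change of the 4 tested transporters, laying over non-laying, with standard errors, and the median of all 12499 tested genes under 4 scalings of the libraries. The dashed line is a fold change of 3. Without scaling every transporter and the median of all genes move down together, the median to -1.80, and SLC7A7 (0.77) and SLC1A4 (1.38) fall under the dashed line.

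The deposited RPKM, which take the length of each gene into account, allowed levels to be compared between the transporters. In laying hens the order of the mean RPKM was SLC7A11 (16.1 ± 10.7), SLC7A7 (14.5 ± 6.12), SLC1A4 (12.96 ± 4.70), SLC7A9 (4.19 ± 1.60) and SLC6A17 (0.416 ± 0.525; SD, n = 3 each). The first 3 did not differ beyond their spread, with ranges of 5.94 to 27.3, 7.70 to 19.6 and 7.56 to 16.1 RPKM. SLC7A9, at 2.61 to 5.81 RPKM, lay just under all of them by range, and further under them within each hen. It had 4.15 RPKM against 7.70 or more in laying hen 1, 5.81 against 16.1 or more in hen 2 and 2.61 against 5.94 or more in hen 3. SLC6A17, at 0.0183 to 1.01 RPKM, lay under SLC7A9. In non-laying hens SLC7A7 came first (8.52 ± 2.73 RPKM), followed by SLC1A4 (4.96 ± 0.523 RPKM), SLC7A11 (3.38 ± 1.95 RPKM) and SLC7A9 (0.161 ± 0.0303 RPKM; SD, n = 3 each), and SLC6A17 was listed at 0. The ranges of SLC1A4, at 4.52 to 5.54 RPKM, and SLC7A11, at 1.13 to 4.62 RPKM, overlapped there, and those of the other neighbours did not. Within each non-laying hen SLC1A4 was above SLC7A11, with 5.54 against 4.62 RPKM in hen 1, 4.83 against 4.40 in hen 2 and 4.52 against 1.13 in hen 3.

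In RPKM, SLC7A9 had 4.15, 5.81 and 2.61 in laying hens, against 0.132, 0.192 and 0.159 in non-laying hens, and the ratio of the means was 26.1. SLC7A11 had 15.2, 27.3 and 5.94 RPKM in laying hens and 4.62, 4.40 and 1.13 RPKM in non-laying hens, and SLC1A4 had 15.2, 16.1 and 7.56 RPKM against 5.54, 4.83 and 4.52 RPKM. For these 3 genes the groups did not overlap in RPKM, with all laying hens on top, and the same was true of 0.456% of all tested genes. SLC7A7 had 7.70, 19.6 and 16.1 RPKM in laying hens and 6.62, 7.30 and 11.6 RPKM in non-laying hens, where laying hen 1 was below non-laying hen 3 and the groups overlapped. In TMM-scaled CPM the laying hens lay above the non-laying hens without overlap for the 4 tested transporters and for 15.1% of all tested genes. SLC6A17 is not counted in either, since the 1 count of laying hen 3 cannot be set apart from 0 counts.

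Together the 5 transporters summed to 42.4, 69.9 and 32.3 RPKM in laying hens 1, 2 and 3, against 16.9, 16.7 and 17.5 RPKM in non-laying hens 1, 2 and 3. The sum was 48.2 ± 19.5 RPKM in laying hens and 17.02 ± 0.382 RPKM in non-laying hens (SD, n = 3 each), a ratio of means of 2.83. The non-laying hens thus held nearly the same sum in RPKM, which carry no TMM scaling. The share of the most abundant gene in their counts ran from 1.33% to 36.5%. In TMM-scaled CPM, where no sum was taken, all 4 tested transporters were highest in non-laying hen 2. What made up the sum differed. SLC7A9 was 9.78%, 8.31% and 8.10% of it in laying hens 1, 2 and 3, against 0.779%, 1.15% and 0.910% in non-laying hens 1, 2 and 3. Its mean share was 8.73% ± 0.916 in the laying group and 0.946% ± 0.188 in the non-laying group (SD, n = 3 each). SLC7A7 was 18.2%, 28.1% and 50.01% of the sum in laying hens, against 39.1%, 43.7% and 66.7% in non-laying hens, so its share was the largest in hen 3 of each group and the groups overlapped. SLC7A11 was 35.8%, 39.1% and 18.4% of the sum in laying hens, against 27.3%, 26.3% and 6.46% in non-laying hens. Its share was lowest where that of SLC7A7 was highest. Since all are shares of the same sum, a larger share of SLC7A7 by itself lowers the others. SLC1A4 was 35.7%, 23.1% and 23.4% in laying hens, against 32.8%, 28.9% and 25.9% in non-laying hens, with a mean of 27.4% ± 7.198 in laying hens and 29.2% ± 3.44 in non-laying hens (SD, n = 3 each).

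**Figure D4:**
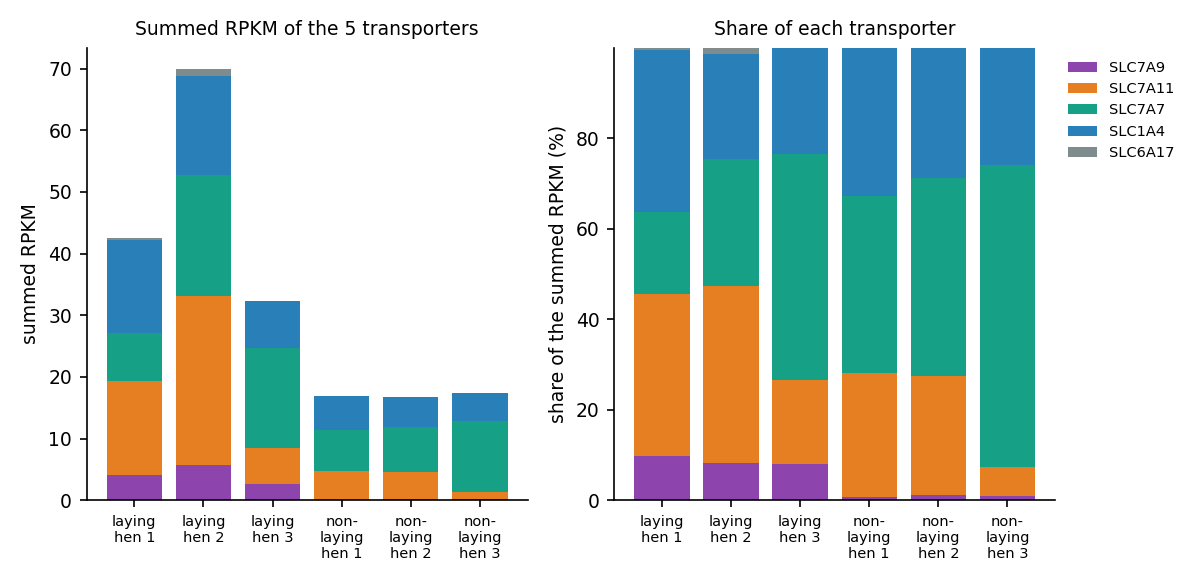
Left, summed RPKM of the 5 transporters in each hen; right, the share of each transporter in that sum in percent. The sum is 32.3 to 69.9 RPKM in laying hens and 16.7 to 17.5 RPKM in non-laying hens, and SLC7A9 makes up 8.10% to 9.78% of it in laying hens and 0.779% to 1.15% in non-laying hens.

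A ratio of 2 genes within a library does not depend on how the libraries are scaled. For every 100 counts of SLC7A7, laying hens 1, 2 and 3 had 60.4, 32.6 and 17.8 counts of SLC7A9, against 2.20, 2.90 and 1.52 counts in non-laying hens 1, 2 and 3. On the log2 scale the ratio was -1.61 ± 0.88 in laying hens and -5.55 ± 0.47 in non-laying hens (SD, n = 3 each), a difference of 3.94. The 2 groups did not overlap. The exact permutation test (two-sided) gave p = 0.1, which no split of 6 hens into groups of 3 can go below. SLC7A9 and SLC7A7 had the largest and the smallest log2 fold change of the 4 tested (6.35 and 2.45). A difference of their ratio was thus given beforehand, and the lack of overlap and the test are no further evidence for it. The non-laying ratios rest on 5, 8 and 5 counts of SLC7A9 in hens 1, 2 and 3. How many other gene pairs separate the groups was not counted. The ratios of SLC7A9 to SLC3A1 and of SLC7A11 and SLC7A7 to SLC3A2 were not analysed here, because the tables used pair neither heavy chain with an identifier.

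The rank of a gene within its own library does not change when the library is rescaled, but it depends on all other genes there. SLC7A7 had 7.70 RPKM at the 85.3rd percentile in laying hen 1, and 11.6 RPKM at the 58.8th in non-laying hen 3. Ranks are thus no check on TMM, which sets the bulk of genes near no change. Among all 19152 genes by RPKM, SLC7A9 stood at the 76.3rd, 76.0th and 62.8th percentile in laying hens 1, 2 and 3 and at the 26.9th, 31.7th and 23.5th in non-laying hens 1, 2 and 3. SLC7A11 stood at the 92.9th, 94.97th and 77.3rd percentile in laying hens and at the 54.6th, 59.3rd and 33.9th in non-laying hens. SLC7A7 stood at the 85.3rd, 92.7th and 91.4th percentile in laying hens and at the 60.4th, 68.7th and 58.8th in non-laying hens. SLC1A4 stood at the 92.9th, 90.8th and 81.4th percentile in laying hens and at the 57.4th, 61.0th and 44.6th in non-laying hens. By rank the groups did not overlap for any of these 4 transporters, with the laying hens on top, including SLC7A7, whose RPKM overlapped between the groups. The same was true of 14.5% of all tested genes.

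**Figure D5:**
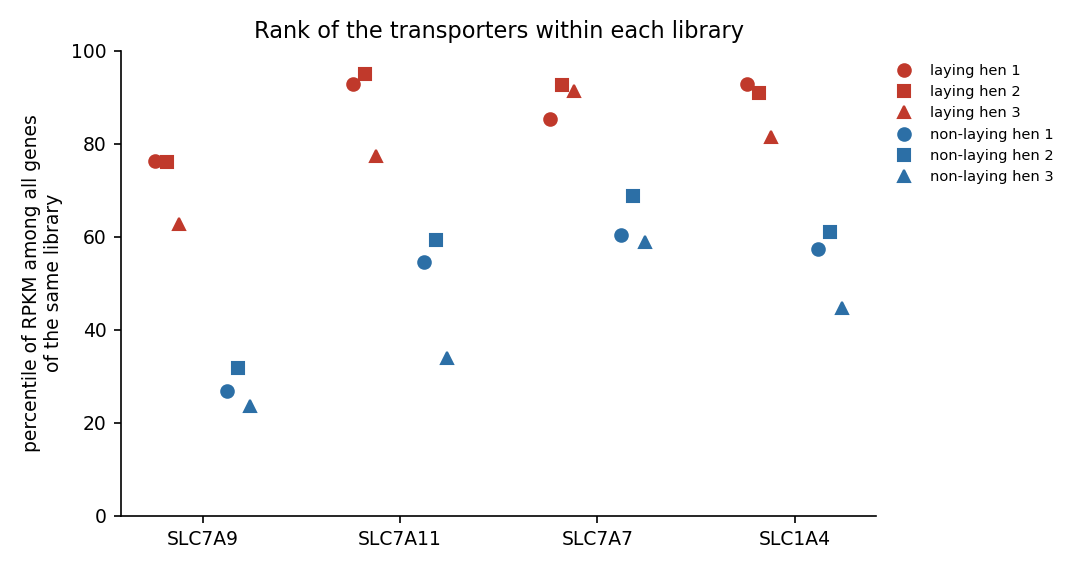
Percentile of the RPKM of the 4 tested transporters among all 19152 genes of the same library; each point is 1 hen. All laying hens lie between 62.8 and 94.97 and above the non-laying hens of the same gene, which lie between 23.5 and 68.7. The groups are apart in this way in 14.5% of all tested genes.

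In TMM-scaled CPM the tested transporters had much the same order among the non-laying hens. Non-laying hen 2 had the highest CPM of its group in SLC7A9, SLC7A11, SLC7A7 and SLC1A4, and non-laying hen 3 had the lowest in SLC7A9, SLC7A11 and SLC1A4. The most abundant gene of the magnum had the same order, with 36.5% of the counts in hen 2, 19.8% in hen 1 and 1.33% in hen 3. In SLC7A7 the lowest was hen 1 (5.80 CPM), with hen 3 close to it (5.96 CPM). The order of SLC7A9 rests on 5, 8 and 5 counts in non-laying hens 1, 2 and 3, whose 95% Poisson intervals overlapped. Hens 1 and 3 had the same count of SLC7A9, so only the scaling set them apart. In laying hens, the order differed between the genes: hen 3 was the lowest in SLC7A9, SLC7A11, SLC1A4 and SLC6A17 and hen 1 was the lowest in SLC7A7. The TMM factors of the non-laying libraries (1.72, 1.19 and 2.94 in hens 1, 2 and 3) followed this order in reverse, and without the scaling the order turned in part. In RPKM non-laying hen 1 was the highest for SLC7A11 and SLC1A4 and the lowest for SLC7A9, and non-laying hen 3 was the highest for SLC7A7. Non-laying hen 3 stayed the lowest for SLC7A11 and SLC1A4, and non-laying hen 2 stayed the highest for SLC7A9.

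The genes most like each transporter were taken among the 368 other genes with a symbol and a mean of at least 1 CPM, by Pearson's r of log2 CPM over the 6 libraries. Symbols came only from the study's tables of genes changed between these groups, so these genes had been chosen for a difference, and genes without a symbol could not be named here. Since the 6 libraries form 2 groups, a high r rests largely on the difference between the groups, and 104 to 326 of the 11451 genes compared had an r over 0.95 with a given transporter. SLC7A9 was most like ALDH1L2, a mitochondrial enzyme of folate metabolism (r = 0.996), BEAN1 (r = 0.995) and melanotransferrin, MELTF (r = 0.995). SLC1A4 was most like the organic cation transporter relative SLC22A18 (r = 0.999), ACCSL (r = 0.997) and NIPAL4 (r = 0.991). SLC7A7 was most like the lipase ABHD6 (r = 0.983), the spectrin SPTBN5 (r = 0.981) and the collagenase MMP1 (r = 0.974).

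Among these named genes SLC7A11 was most like ATF4 (r = 0.994), the transcription factor that mammalian cells translate when amino acids run short, followed by the stromelysin MMP10 (r = 0.992) and the monocarboxylate transporter relative SLC16A5 (r = 0.991). ATF4 (ENSGALG00000012135) had 2667, 2342 and 1374 CPM in laying hens 1, 2 and 3, against 614, 800 and 272 CPM in non-laying hens 1, 2 and 3. In these TMM-scaled CPM all laying hens lay above all non-laying hens, as for 15.1% of all tested genes. Hen 3 was the lowest in each group, as for SLC7A11, but also for SLC7A9, SLC1A4 and the named genes most like them. It was not so for SLC7A7, and the share of all genes with this order was not counted. The unscaled counts of ATF4 were 29753, 37500 and 20557 in laying hens 1, 2 and 3. Those of non-laying hens 1, 2 and 3 were 24011, 23763 and 15091, so laying hen 3 lay below non-laying hens 1 and 2. The log2 fold change of ATF4 was 1.92 (standard error 0.51) and did not pass, at an edgeR adjusted p of 0.0582. ATF4 did pass both thresholds with DESeq2, where 1.79% of the genes passed as higher in laying hens. It also passed in edgeR without non-laying hen 3, where 563 of 12538 tested genes did.

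Of the 55 symbols listed as genes of the amino acid response, including older symbols of the same genes, 6 could be paired with an identifier, all from the study's own list of changed genes. Of these 6, 5 passed both thresholds higher in laying hens and 0 lower, with ATF4 as the exception in edgeR with all 6 hens. The median log2 fold change of the 6 was 2.51. Among all 12499 genes tested, 1.28% passed as higher and 3.7% as lower, and the median was 0.0035. Since the 6 had been chosen for a difference in these libraries, the count is a description and does not speak for the whole list. The 5 that passed were SESN2, a stress-induced regulator of growth signalling, ASNS, which makes asparagine, and the serine synthesis enzymes PHGDH, PSAT1 and PSPH. SESN2 (ENSGALG00000037603) had 39.7, 35.3 and 10.7 CPM in laying hens 1, 2 and 3, against 3.30, 5.15 and 3.95 CPM in non-laying hens 1, 2 and 3. Its log2 fold change was 2.79 (standard error 0.47, edgeR adjusted p = 0.0168). The log2 fold change was 2.73 for PSPH, 2.68 for PHGDH, 2.34 for PSAT1 and 2.28 for ASNS. Like SLC7A11, SESN2 was lowest by far in laying hen 3 among the laying hens. ASNS and PSAT1 were also lowest in hen 3, with 259, 295 and 174 CPM and 119, 100 and 45.8 CPM in laying hens 1, 2 and 3. PHGDH and PSPH had another order, with 34.7, 32.8 and 39.8 CPM and 47.5, 41.1 and 56.9 CPM in laying hens 1, 2 and 3, where hen 3 was the highest. Without laying hen 1 or laying hen 2, 0 of the 6 passed both thresholds, where only 20 of 13053 and 16 of 13022 tested genes did. Without non-laying hen 1, 2 of the 6 passed, beside 285 of 12653 tested genes. These losses ran over all genes and are not particular to the response genes. On total counts without scaling 0 of the 6 passed, and 0.376% of all tested genes passed as higher. Of 67 other amino acid transporters and carriers listed for comparison, none could be paired with an identifier, and they were not analysed here.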

How the data were processed

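Magnum mRNA of 3 laying and 3 non-laying hens was sequenced as stranded single-end libraries. Array Studio, run by the authors against Galgal 5.0 on reads trimmed with Prinseq, gave the estimated counts (expected counts) deposited per Ensembl gene, without normalization. The authors also deposited RPKM, which equal the counts per kilobase of exon and per 1000000 summed counts for the transporters but SLC7A7, whose values imply 1491 to 1518 bases where its exons are listed with 1522. From the deposited table of differentially expressed genes only names, starts, ends and exon lengths (other annotation values) were used, and its fold changes and p-values, the authors' own comparison, were not. Symbols came from that table (374 genes) and the study's supplement (409 genes). RefSeq's gene table (GRCg7b) holds no Ensembl identifiers for chicken and was used only to compare chromosomes. No sequences were used.

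Counts were rounded, filtered with filterByExpr and fitted in edgeR 4.0.16 (R 4.3.3) by glmQLFit and glmQLFTest with TMM, two-sided, without covariates, over all genes. Standard errors were taken as the log2 fold change over the root of F. The study's thresholds were used (adjusted p under 0.05 by Benjamini-Hochberg, change of more than 3-fold). The script was tested on simulated data. Their groups shared the same composition apart from the genes set to change, so that test does not speak for the scaling. Libraries are separate hens, and the limit for a library without counts was 3 counts (0.0542 to 0.269 CPM), which covers counting error only. Members and lists were chosen with earlier results of these data known. Named genes were the 5 transporters, the members of the response list, and the 3 named genes with the highest r to each transporter. Alternatives were DESeq2's size factors, no scaling, TMM without the 20 most abundant genes, DESeq2 1.42.0, all genes with at least 1 count, limma 3.58.1 on log2(RPKM + 1) or log2(RPKM + 0.1), replicate number as a block and each hen left out. The sum and shares of RPKM, the ranks and the limits for SLC6A17 were added after the data were seen. Python 3.11.15, scipy 1.17.1 and matplotlib 3.10.9 were used.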

Additional observations from a re-analysis of the deposited data

How the results depend on the processing

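All log2 fold changes of the 4 tested transporters stayed positive in their 14 alternatives each, and SLC7A9 passed both thresholds in all 14. Leaving out each hen moved the log2 fold change of SLC7A11 between 3.21 and 4.28, of SLC7A7 between 2.26 and 2.71 and of SLC1A4 between 2.73 and 3.37. The adjusted p over all alternatives ran from 8.03e-28 to 0.0426 for SLC7A9, 5.45e-06 to 0.12 for SLC7A11, 4.04e-10 to 0.177 for SLC7A7 and 9.22e-09 to 0.0726 for SLC1A4 (edgeR, DESeq2 or limma). On total counts, log2(RPKM + 1) and log2(RPKM + 0.1), the log2 fold change was 0.77, 0.65 and 0.70 for SLC7A7 and 1.38, 1.16 and 1.30 for SLC1A4, so 2 of the 5 transporters passed both thresholds in each of these. All genes passing then numbered 7896, 3845 and 7040, of which only 47, 28 and 44 were higher in laying hens. Of the 6 amino acid response genes, 0 passed in these fits. With each hen left out, 1 to 5 transporters, 16 to 639 genes and 0 to 6 response genes passed, the lowest of all 3 without laying hen 2 (for the response genes also without laying hen 1). SLC6A17 did not pass the filter of the planned fit, so the fit of all genes with at least 1 count stands for it. It passed both thresholds there, with DESeq2 and, among the filtered fits with a hen left out, without laying hen 3, but not without non-laying hen 1, 2 or 3. The fitted log2 values of these 4 fits (8.14 to 9.16) depend on the prior count and say nothing of a size or its stability. The bound for SLC6A17, which takes the laying mean as measured, was 6.63-fold on total counts and 7.39-fold to 29.98-fold with hens left out. DESeq2 called 1008 genes. Libraries of the same replicate number did not deviate together (r of 0.18, -0.07 and 0.03 for numbers 1, 2 and 3), and with the replicate block 397 genes passed, the 4 tested transporters among them. The log2 ratio of SLC7A9 to SLC7A7 moved by less than its spread in its 8 alternatives. The planned motif, protein and heavy chain comparisons were not run, for want of sequences and identifiers. The few counts of SLC7A9 in non-laying hens and of SLC6A17 limit the size of their fold changes.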
